A study of Homo sapiens with 6 samples.

Results

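HCT116 is a human colorectal carcinoma cell line, and its unedited control cells were described here as a baseline: how abundant the transcripts of lineage, oncogene, DNA repair and metabolic genes were. The description rests on 2 of the 6 libraries in the series, those labelled WT. The other 4 come from cells given either of 2 guides against MUC3A, a membrane mucin gene, and enter no value below. The labels give the controls the genotype wild type and the treatment negative control. The protocol describes lentiCRISPR v2 virus, a scrambled control virus, infection at a multiplicity of 10 and selection with 2 µg/mL puromycin for 72 h, so an infection of the WT cells can be neither taken as given nor left out. The columns carry the prefixes HCT and HCT116. What this prefix stands for is not explained, and nothing says that the libraries came from separate cultures.

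Poly(A) RNA was sequenced, and the HCT and HCT116 libraries held 14325699 and 13638724 reads assigned to genes. A level is given as TPM, which is reads per kilobase of the longest annotated transcript scaled to sum to 1000000, and pairs of values give the HCT library first. CPM, reads per 1000000 without the length, served to ask whether a gene was detected. Ranks count down from the highest mean TPM among the 15548 genes with a row. With 1 group of 2 libraries there is no test, and the distance between the 2 values is the only error estimate. Intervals and floors from read numbers cover counting error only. A count of 0 allows up to 3 reads, or 0.209 CPM in the HCT library and 0.220 CPM in the HCT116 library.

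The colonic epithelium is renewed from crypt stem cells that depend on Wnt signalling, and its daughter cells mature into absorptive colonocytes, goblet cells and enteroendocrine cells. HCT116 was derived from a colorectal carcinoma, carries activating mutations of PIK3CA and CTNNB1, and is deficient in mismatch repair. Read counts per gene do not show alleles, so none of these changes was checked.

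Of the 15548 genes, 11634 (74.8%) reached 1 CPM in both libraries, 8737 (56.2%) reached 10 CPM and 1642 (10.6%) reached 100 CPM. The median gene stood at 15.1 TPM in the HCT library and 9.44 TPM in the HCT116 library (12.8 TPM for the mean of both). The 100 most abundant genes took 22.0% of the reads in the HCT library and 22.6% in the HCT116 library. Transcripts of the mitochondrial genome, which encodes subunits of the respiratory chain, took 5.34% and 4.84% of reads and filled the first 5 ranks. MT-CO2 was first by the mean, at 28889 and 24444 TPM. MT-CO1 was above it in the HCT library at 29187.5 TPM, and MT-CO3 in the HCT116 library at 25703 TPM. Ribosomal protein genes took 5.59% and 7.20% of reads. Outside these groups the order began with the actin gene ACTG1 at 10863 and 9487 TPM. The glycolytic enzyme gene GAPDH followed at 9518 and 9232 TPM, and TMSB10, an actin-binding thymosin, stood at 3459 and 6835 TPM. The first 12 also held ENO1 (an enolase), HSP90AB1 (a chaperone), ACTB, FTL (ferritin light chain), the elongation factor genes EEF2 and EEF1A1, PTMA (prothymosin alpha) and the keratin genes KRT19 and KRT8. TMSB10, FTL and EEF1A1 were more than 1.5-fold apart between the libraries, and FTL stood at 2704 and 5901 TPM.

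The 2 control libraries differed well beyond counting error. Among 9489 genes with a mean of at least 10 CPM, log2 CPM correlated at r = 0.838 across genes, as a description, and the median gene differed 1.55-fold. Past 2-fold were 2543 genes (26.8%), 1743 (18.4%) higher in the HCT library and 800 (8.43%) higher in the HCT116 library. That split rests on the scaling: with TMM factors 1095 were higher in HCT and 1372 in HCT116, because TMM moved the median log2 ratio by 0.25. The ratio moved with transcript length and GC content. In the eighth of genes with the shortest transcripts the median log2 ratio of HCT116 over HCT was 0.60, and in the eighth with the longest it was −0.99. From the lowest to the highest eighth of GC content it ran from −0.85 to 0.62. Long, AT-rich transcripts therefore stood higher in the HCT library, and whether this reflects the RNA or the library was not tested. Levels below are given for each library for this reason.

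**Figure D1:**
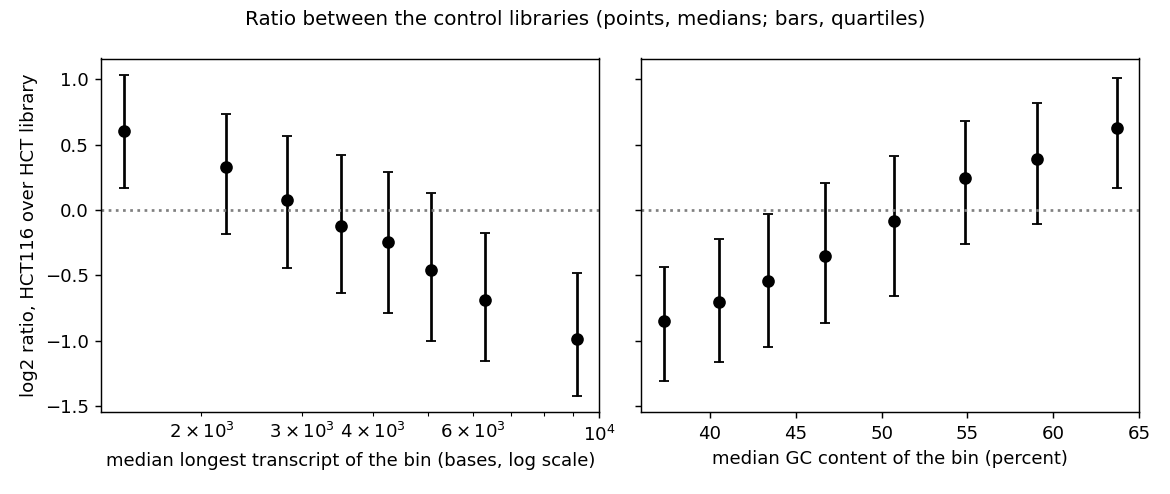
Log2 ratio of CPM between the control libraries (HCT116 over HCT, CPM + 0.5) for 9489 genes in 8 bins of longest transcript length (left, bases, log axis) and 8 bins of GC content (right, percent). Points are bin medians and bars are quartiles; the medians fall from 0.60 to −0.99 with length and rise from −0.85 to 0.62 with GC content.

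Low values need care in these tables. Genes with over 90% of their exonic bases shared with another annotated gene reached 1 CPM in 29 of 124 cases (23.4%), against 72.6% of genes that share none. From HLA-F to DAXX on chromosome 6, the stretch of the major histocompatibility complex, 0 of 21 genes with a row reached 1 CPM, against 491 of 689 (71.3%) on the rest of that chromosome. Some genes that dividing cells use were also near 0: ALDOA, the aldolase of most tissues, had 69 and 19 reads, and ACACA, which makes malonyl-CoA, had 33 and 32 reads. For ALDOA 53.5% of exonic bases are shared with another gene, but for ACACA 0%. Genes that share over 0 to 50% reached 1 CPM in 80.3% of cases, more often than genes that share none. The cause was not tested, and a gene at or near 0 is not shown to be silent. Of 947 listed genes 826 have a row, and the other 121, with HRAS among them, were not analysed here.

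Epithelial genes were abundant. Of the genes of epithelial identity, 21 of 26 reached 10 CPM in both libraries (80.8%, against 56.2% of all genes). Their median was 70.4 TPM in the HCT library and 35.5 TPM in the HCT116 library (64.4 TPM for the mean of both). CD9, a tetraspanin of the cell surface, stood at 668 and 363 TPM, the highest in the HCT library and second to EPCAM in the HCT116 library. JUP, which encodes the junction protein plakoglobin, stood at 462 and 343 TPM, and EPCAM, the epithelial adhesion molecule, at 375 and 375 TPM. SPINT2, a serine protease inhibitor of epithelia, was at 246 and 248 TPM. EPCAM and SPINT2 were nearly equal in the 2 libraries. The adherens junction cadherin CDH1 differed more, at 91.5 and 28.5 TPM, and DSG2, a desmosomal cadherin, at 161 and 41.0 TPM showed the widest library gap of the list. Widest gaps, here and below, are among members with a mean of at least 10 CPM. CLDN1, a tight junction claudin, had only 11 and 2 reads.

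The 3 most abundant keratins were those of simple epithelia, and 7 of 12 keratins reached 10 CPM (58.3%, against 56.2% of all genes). KRT19 stood at 3692 and 3268 TPM (rank 23), KRT8 at 3264 and 3369 TPM (rank 26) and its partner KRT18 at 1502 and 1768 TPM (rank 71). KRT8 and KRT18 form the filaments of simple epithelial cells. The next keratin, KRT10 of stratified epithelium, was far lower at 28.2 and 57.4 TPM. Of the basal keratins of stratified epithelium, KRT15 was detected at 10.7 and 13.6 TPM, while KRT5 and KRT14 had 5 and 4 reads and 2 and 2 reads. Mesenchymal genes of the epithelial-mesenchymal transition reached 10 CPM in 3 of 7 cases (42.9%, against 56.2% of all genes). Their highest member was SNAI1, a repressor of CDH1, at 28.6 and 25.8 TPM. FN1 stood at 21.4 and 4.63 TPM, the widest library gap of the list. VIM, the intermediate filament gene of mesenchymal cells, stood at 11.8 and 10.4 TPM, and CDH2, the neural cadherin, had 7 and 1 reads.

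Upstream sequences of 3 genes at opposite ends of the range are shown to set abundance beside promoter sequence. Each is the 250 bases before the annotated start, 5′ to 3′ on the gene's strand, from RefSeq on GRCh38.p14, with CG dinucleotides in capitals. ENO1 (rank 14) lies on the minus strand at chr1:8878687-8878936, KRT8 (rank 26) on the minus strand at chr12:52926470-52926719, and ALPI, intestinal alkaline phosphatase with 0 reads, on the plus strand at chr2:232455903-232456152.
ENO1: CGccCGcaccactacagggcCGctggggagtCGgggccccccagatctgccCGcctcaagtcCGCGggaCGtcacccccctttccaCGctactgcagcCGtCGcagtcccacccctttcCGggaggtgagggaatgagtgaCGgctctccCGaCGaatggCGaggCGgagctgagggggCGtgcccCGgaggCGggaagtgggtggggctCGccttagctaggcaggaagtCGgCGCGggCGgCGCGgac
KRT8: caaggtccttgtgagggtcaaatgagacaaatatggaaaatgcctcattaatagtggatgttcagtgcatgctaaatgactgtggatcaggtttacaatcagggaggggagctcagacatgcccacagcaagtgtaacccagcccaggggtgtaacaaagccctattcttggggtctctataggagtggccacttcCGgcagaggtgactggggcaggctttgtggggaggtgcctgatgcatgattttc
ALPI: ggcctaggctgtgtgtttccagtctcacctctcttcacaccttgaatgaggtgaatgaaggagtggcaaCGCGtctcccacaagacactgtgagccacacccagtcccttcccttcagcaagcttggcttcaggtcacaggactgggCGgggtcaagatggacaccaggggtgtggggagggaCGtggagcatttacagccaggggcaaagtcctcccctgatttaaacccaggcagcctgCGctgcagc
The ENO1 window holds 27 CG dinucleotides, the KRT8 window 1 and the ALPI window 5, against a median of 11 over 35116 promoters. The window of KRT8, among the most abundant transcripts, held fewer CG dinucleotides than that of ALPI. The 3 genes were picked by hand, so no relation between level and sequence can be drawn from them. Each window precedes 1 annotated start, and whether the transcripts counted here began at it was not tested. A wider comparison of promoter sequence with level was void, because 79.2% of genes matched a promoter and 80% was the minimum.

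Intestinal transcription factors were unevenly present: 10 of 24 reached 10 CPM (41.7%, against 56.2% of all genes), and the list median was 2.53 TPM. SOX9, a crypt progenitor factor, led at 259 and 77.6 TPM, a wide gap between libraries. ELF3, an epithelial ETS factor, stood at 115 and 68.6 TPM, and HES1, a Notch target that restrains secretory fate, at 85.8 and 69.1 TPM. KLF5, a factor of proliferating crypt cells, was at 79.3 and 24.1 TPM. CDX2, the homeobox gene that specifies intestinal identity, was moderate at 14.5 and 20.6 TPM (rank 6810), whereas its relative CDX1 had 1 and 0 reads. HNF4A, a regulator of enterocyte genes, was low at 2.95 and 1.75 TPM, and ISX, another homeobox factor of the intestine, had 0 reads in both libraries.

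Enterocyte and goblet cell markers were mostly at or near 0. Of 22 enterocyte markers with a row, 5 of 22 reached 1 CPM and 1 reached 10 CPM, against 74.8% and 56.2% of all genes. That 1 was CA2, a carbonic anhydrase, at 64.3 and 37.8 TPM. DPP4, a brush border peptidase, stood at 11.1 and 2.93 TPM and SLC15A1, a peptide transporter, at 7.06 and 3.01 TPM. VIL1, the microvillus protein villin, had 3 and 0 reads, and ALPI and APOA1 had 0 in both. Among goblet cell markers 1 of 8 reached 1 CPM, GALNT12, which starts mucin-type glycan chains, at 55.7 and 26.1 TPM. The trefoil factor genes TFF1 and TFF2 had 0 reads, and AGR2, a goblet cell disulfide isomerase, had 1 and 0 reads. Of enteroendocrine, Paneth and tuft cell markers 6 of 11 (54.5%) reached 1 CPM and none reached 10 CPM in both libraries, though 2 did in the HCT library. These were SCG2, a secretogranin, at 13.3 and 8.48 TPM and PTGS1, a prostaglandin synthase of tuft cells, at 13.9 and 2.55 TPM. Of 7 mucin genes with a row MUC3A was the highest at 13.9 and 5.00 TPM (rank 8621), followed by MUC1 at 2.21 and 3.08 TPM.

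Markers of other cell types were low apart from a few genes. Leukocyte markers summed to 20.9 and 14.4 CPM, and PTPRC, the CD45 gene that defines leukocytes, had 1 and 0 reads. Endothelial CDH5 had 1 and 0 reads and PECAM1 9 and 3 reads, while EGFL7 stood at 104 and 149.9 TPM. Fibroblast markers summed to 600.5 and 707 CPM, mostly from S100A4 at 1884 and 2099 TPM, a calcium-binding protein gene also used by carcinoma cells. COL1A1, a collagen chain, stood at 28.8 and 14.1 TPM, while the fibroblast genes COL3A1 and DCN had 1 and 1 reads and 1 and 0 reads. Hepatocyte ALB had 2 and 0 reads. Of the lineage genes of HEK293T, the line commonly used to pack lentivirus, 3 of 7 reached 1 CPM (42.9%, against 74.8% of all genes). The highest was the renal factor PAX2 at 7.76 and 12.8 TPM. LHX1 of the same list had 1 and 0 reads.

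**Figure D2:**
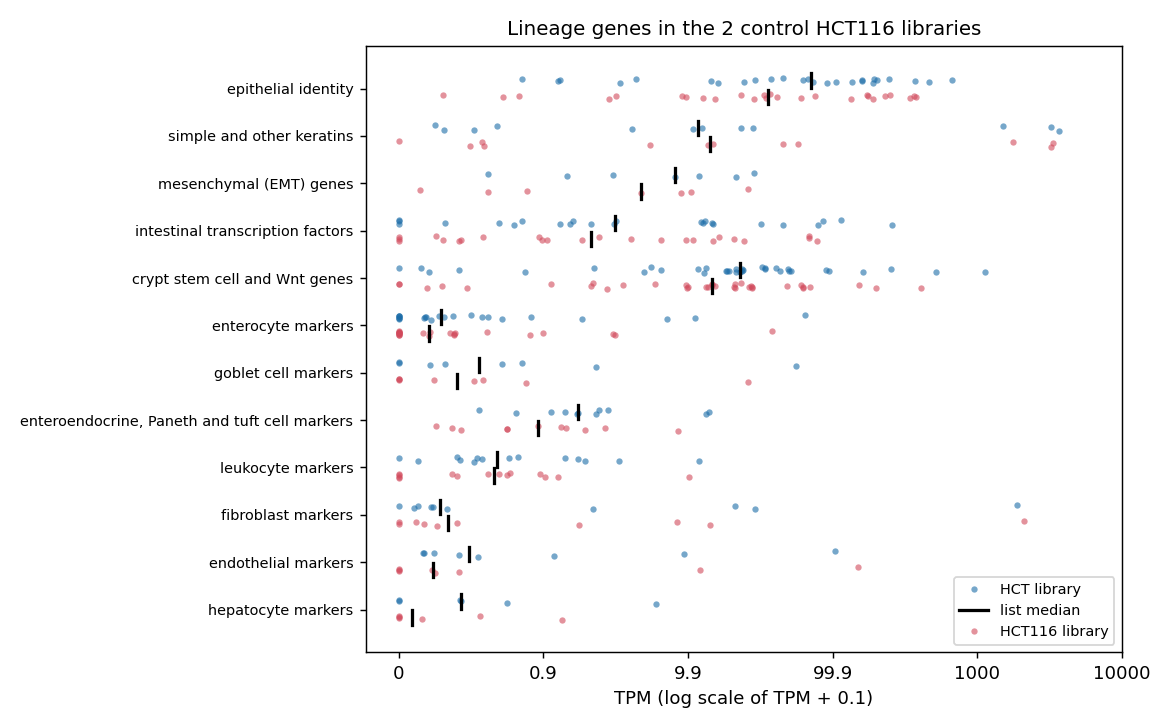
TPM of each member (points, log scale of TPM + 0.1) of 12 lineage lists in the HCT (blue) and HCT116 (red) control libraries; black ticks are list medians. Epithelial genes centre at 70.4 TPM in the HCT library and 35.5 TPM in the HCT116 library, with 3 keratins above 1000 TPM, while the enterocyte, goblet, leukocyte, fibroblast, endothelial and hepatocyte lists centre under 1 TPM.

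Genes of the crypt and the Wnt pathway were detected in 30 of 35 cases and reached 10 CPM in 27 (85.7% and 77.1%, against 74.8% and 56.2% of all genes). In this pathway Wnt ligands act through Frizzled and LRP receptors to stabilise beta-catenin, which then works with TCF factors. CTNNB1, the beta-catenin gene, stood at 254 and 152 TPM (rank 732). TCF7L2, its main intestinal partner, was at 162 and 62.4 TPM. With the union of exons CTNNB1 stood at 140.0 and 85.0 TPM. DKK1, a secreted Wnt antagonist, was the most abundant member at 1133 and 408 TPM (rank 139), and CD44, a hyaluronan receptor and Wnt target, was at 517 and 199 TPM. APC, the scaffold of the beta-catenin destruction complex, was low at 11.7 and 3.42 TPM. The target and feedback gene AXIN2 stood at 21.3 and 27.8 TPM. The stem cell receptor LGR5 had 1 and 0 reads, while its relative LGR4 stood at 12.8 and 2.64 TPM, the widest library gap of the list. LEF1, another TCF-family factor, had 0 reads in both.

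In the RAS and MAPK pathway all 39 members with a row reached 1 CPM and 34 (87.2%) reached 10 CPM. Over all genes these shares were 74.8% and 56.2%. The pathway median was 53.8 TPM. RAS proteins pass signals from receptors to RAF, MEK and ERK kinases, and ERK raises transcripts of its own phosphatases. RRAS at 169 and 116 TPM lay above its relative NRAS at 82.5 and 37.8 TPM in both libraries, with RRAS2 at 63.1 and 44.6 TPM and MRAS at 18.8 and 12.8 TPM. Of the RAF kinase genes, ARAF at 51.5 and 65.4 TPM stood far above BRAF at 8.87 and 4.14 TPM. With the union of exons as length BRAF was lower still, at 4.89 and 2.31 TPM. Downstream, MYC stood at 499.6 and 323 TPM (rank 315). DUSP6, an ERK phosphatase, was at 388 and 117 TPM, and FOSL1, an AP-1 subunit, at 159 and 317 TPM. These 2 genes leaned to opposite libraries.

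Of 40 receptor tyrosine kinases 22 reached 10 CPM (55.0%), near the 56.2% of all genes. The ephrin receptor gene EPHA2 led at 339 and 209 TPM. PTK7, a Wnt co-receptor, stood at 193 and 150.1 TPM, FGFR4 at 153 and 130.4 TPM and MET, the receptor of hepatocyte growth factor, at 214 and 51.5 TPM. Of these 4, MET differed most between the libraries. Within the ERBB family ERBB2 at 75.5 and 83.4 TPM was the highest in both libraries, followed by EGFR at 52.0 and 13.6 TPM and ERBB3 at 19.1 and 11.8 TPM. EGFR and ERBB3 were nearly level in the HCT116 library only. With the union of exons EGFR at 55.0 and 14.6 TPM exceeded ERBB2 at 48.6 and 54.5 TPM in the HCT library. ERBB4 had 7 and 4 reads, KIT 1 and 1 reads and PDGFRB 2 and 5 reads. Among ligands KITLG, the ligand of KIT, was the highest in the HCT library at 786 and 177 TPM, and AREG exceeded it in the HCT116 library. The EGFR ligands AREG and EREG stood at 498 and 253 TPM and 229.6 and 140.5 TPM, whereas EGF itself had 13 and 6 reads. FGF19, a ligand of FGFR4, was at 122 and 83.3 TPM, and IGF2 stood at 25.8 and 16.96 TPM.

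All 31 measured genes of the PI3K, Akt and mTOR pathway reached 1 CPM, and 25 (80.6%) reached 10 CPM. Over all genes these shares were 74.8% and 56.2%. PI3K makes a membrane lipid that recruits Akt, which relieves the brakes on the growth kinase mTOR. Among catalytic subunits PIK3CA was the lowest of 3 at 9.45 and 2.48 TPM, below PIK3CB at 39.5 and 15.3 TPM and PIK3CD at 26.2 and 11.9 TPM, in both libraries. PIK3CA shares 35.8% of its exonic bases with another gene, against 0% for PIK3CB and 1.41% for PIK3CD. Whether this lowered its reads was not tested. AKT1 made up 60.2% and 56.5% of the 2 measured AKT genes, at 82.3 and 95.5 TPM against 54.4 and 73.4 TPM for AKT2. That share rests on the length used, and AKT1 led by more with the other lengths. With the union of exons AKT1 stood at 83.4 and 98.2 TPM and AKT2 at 25.8 and 35.4 TPM. With the principal transcript AKT1 stood at 151 and 173 TPM and AKT2 at 46.6 and 62.1 TPM. The highest member was EIF4EBP1, a translation repressor that mTOR inactivates, at 186 and 358 TPM. STK11, the LKB1 kinase, stood at 88.8 and 169 TPM, and MLST8, an mTOR subunit, at 70.2 and 148 TPM. IRS2, an insulin receptor adaptor, had the widest gap at 17.8 and 2.99 TPM.

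Of 34 genes listed as colorectal cancer tumour suppressors, 32 have a row. All 32 reached 1 CPM (74.8% of all genes) and 25 reached 10 CPM (78.1%, against 56.2% of all genes). CDKN1A, the p21 cell cycle inhibitor, was the most abundant of the list at 414 and 305 TPM, and MDM2, a ubiquitin ligase gene, was at 40.7 and 20.2 TPM. CDKN2A, which encodes p16 and p14ARF, stood at 112 and 239.9 TPM, and the apoptosis effector BAX at 123 and 216 TPM. Length mattered for MDM2 and CDKN2A: the mean was 129.9 TPM for MDM2 with the principal transcript, and 71.0 TPM for CDKN2A with the union of exons. In the TGF-beta pathway, the receptor gene TGFBR2 was at 39.0 and 13.0 TPM and SMAD4 at 24.0 and 11.97 TPM.

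In mismatch repair MSH6 and MSH3 are alternative subunits of the complexes that recognise mispaired bases, and PMS2 belongs to the complex that then directs excision. All 16 measured genes reached 1 CPM and 12 (75%) reached 10 CPM, against 74.8% and 56.2% of all genes. The shared replication factors were the highest, with the sliding clamp gene PCNA at 411 and 652 TPM and RPA1, a single-strand binding protein, at 151 and 135 TPM. MSH6 stood at 32.3 and 28.1 TPM and PMS2 at 22.7 and 10.2 TPM. MSH3 was far lower at 2.21 and 1.51 TPM (rank 11297, 47 and 35 reads). These genes kept the same order in both libraries.

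Base excision repair genes were detected in full, 21 of 21 at 1 CPM (against 74.8% of all genes), with a median of 42.6 TPM. APEX1, the abasic site nuclease, led at 281 and 386 TPM. PARP1, the sensor of strand breaks, stood at 199 and 209 TPM. FEN1, the flap nuclease, was at 123 and 295 TPM, and UNG, the uracil glycosylase, at 114 and 246 TPM, both higher in the HCT116 library. In nucleotide excision repair DDB1, a damage recognition subunit, was the highest at 272 and 242 TPM, and ERCC5, a nuclease with 63.2% of its exonic bases shared with another gene, had 14 and 4 reads. End joining was led by the Ku subunits XRCC6 at 1019.6 and 1164 TPM (rank 100) and XRCC5 at 449.6 and 391 TPM. In homologous recombination and the Fanconi pathway 28 of 36 reached 10 CPM (77.8%, against 56.2% of all genes). Its median was only 13.6 TPM, near that of all genes. Its highest member, the helicase gene RECQL4, stood at 138 and 362 TPM and was 3.02-fold higher in CPM in the HCT116 library. MGMT, which removes alkyl groups from guanine, was detected at 31.0 and 38.5 TPM. The histone gene H2AFX, whose product marks double-strand breaks, led the checkpoint list at 356 and 1041 TPM. TERT, the catalytic subunit of telomerase, was low but detected at 6.46 and 10.3 TPM (135 and 235 reads), while its partner DKC1 stood at 111 and 159.7 TPM.

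Glycolysis turns glucose into pyruvate and lactate, and its genes were among the most abundant: 16 of 34 reached 100 CPM, against 10.6% of all genes. GAPDH, ENO1 (at 5649 and 4138 TPM) and PKM (at 3362 and 3009.6 TPM) were in the first 29 ranks. LDHA, which makes lactate, stood at 2293 and 1119.9 TPM. With the union of exons the means were 3203 TPM for ENO1, 1521 TPM for PKM and 899 TPM for LDHA, lower than with the longest transcript. One form usually held most of each enzyme family. ENO1 made up 95.9% and 97.3% of the enolases and PGAM1 98.5% and 99.6% of the phosphoglycerate mutases. The only other mutase with a row, PGAM2, shares 100% of its exonic bases with another gene, so its low reads are uncertain, and PKM was the only pyruvate kinase gene with a row. LDHA made up 91.4% and 77.9% of the lactate dehydrogenases, with LDHB at 8.54% and 22.1%. HK1 took 67.1% and 80.3% of the hexokinases and HK2 31.1% and 17.3%. PFKP, the platelet-type phosphofructokinase, took 60.0% and 56.9%, with PFKM and PFKL sharing the rest (PFKL stood at a mean of 249 TPM with the principal transcript). ALDOC took 98.4% and 98.4% of the measured aldolases, a share that rests on the low reads of ALDOA described above. The transporter SLC2A1 took 89.5% and 86.1% of the glucose transporters. SLC2A3, a neuronal-type transporter, was the most divergent listed gene, at 69.8 and 3.74 CPM, 18.7-fold higher in the HCT library. SLC16A1, a lactate transporter, had 0 reads, and SLC16A3, its relative, stood at 310.1 and 501 TPM.

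**Figure D3:**
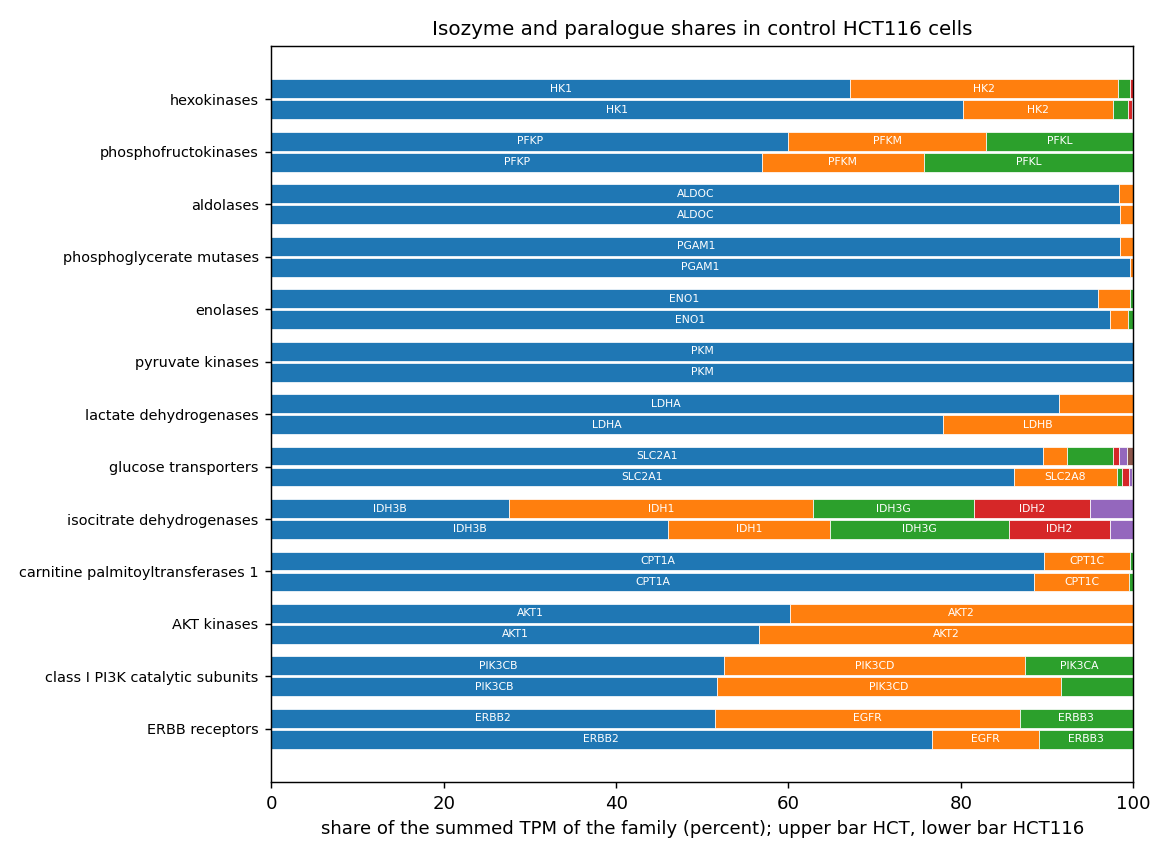
Share (percent) of each member in the summed TPM of enzyme and signalling families, with the HCT library in the upper bar and the HCT116 library in the lower bar of each pair; colours order members by mean TPM and members over 9% are named. ENO1 and PGAM1 hold nearly all of their families and PKM is the only pyruvate kinase with a row, whereas the isocitrate dehydrogenases are split among several members.

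In the tricarboxylic acid cycle 29 of 33 members reached 10 CPM (87.9%, against 56.2% of all genes), with a median of 76.7 TPM. The malate dehydrogenases MDH2 and MDH1 led at 578 and 594 TPM and 386 and 316 TPM. IDH1 and IDH2, which make NADPH, stood at 217 and 114 TPM and 82.9 and 70.8 TPM. PDK1, which inhibits entry of pyruvate, was among the lower members at 9.51 and 1.44 TPM and had the widest gap of the list. In the pentose phosphate pathway the transaldolase gene TALDO1 stood at 460.5 and 532 TPM. In one-carbon metabolism AHCY, which clears S-adenosylhomocysteine, led at 692 and 579.8 TPM, and PHGDH, the first enzyme of serine synthesis, stood at 127 and 244 TPM. CBS, which starts cysteine synthesis, had 0 and 1 reads.

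Amino acid and polyamine genes formed one of the higher metabolic lists, at a median of 112 TPM. SAT1, which acetylates polyamines, was first in the HCT library only, at 3245 and 489 TPM, and 5.78-fold higher in the HCT library in CPM. PYCR1, which makes proline, stood at 432 and 798 TPM, and SLC7A5, a leucine transporter, at 349.8 and 707 TPM, both above SAT1 in the HCT116 library. In lipid synthesis the fatty acid synthase gene FASN and the desaturase gene SCD stood at 1066 and 725 TPM and 1169 and 446 TPM. CPT1A, which admits fatty acids to mitochondria, made up 89.6% and 88.5% of its family, in which the low reads of CPT1B are uncertain because 66.4% of its exonic bases are shared with another gene. PPARGC1A, a co-activator of mitochondrial genes, had 1 and 0 reads. Nucleotide genes were detected at 1 CPM in 28 of 28 cases, against 74.8% of all genes. IMPDH2, the key enzyme of guanine nucleotide synthesis, was at 1046 and 883 TPM, TK1, the thymidine salvage kinase, at 600.3 and 1105 TPM, and TYMS, the target of fluorouracil, at 97.1 and 181 TPM. DPYD, which breaks fluorouracil down, was low at 3.09 and 0.399 TPM (71 and 10 reads). GSTP1, a glutathione transferase, was high at 873 and 1466 TPM.

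Among cell cycle genes 21 of 23 reached 10 CPM (91.3%, against 56.2% of all genes), with a median of 99.9 TPM. MCM7, a subunit of the replication helicase, stood at 313 and 659 TPM, and CCND1, cyclin D1, at 419.9 and 251 TPM, while CCND2 had 0 reads. Of the apoptosis regulators BCL2L1, which blocks cell death, was the highest at 339.8 and 356 TPM and BIRC5, survivin, stood at 163 and 344 TPM; BCL2 was at 1.06 and 1.46 TPM. B2M, the light chain of class I molecules, was detected at 109 and 76.7 TPM. The heavy chain genes HLA-B, HLA-C and HLA-E had at most 4 reads in a library, within the stretch of chromosome 6 described above. Of 8 cancer-testis genes MAGEB2 at 361 and 305 TPM and MAGEA3 at 155 and 182 TPM were abundant. MAGEA6, a close copy of MAGEA3, had 4 and 3 reads, and reads of such copies are uncertain.

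**Figure D4:**
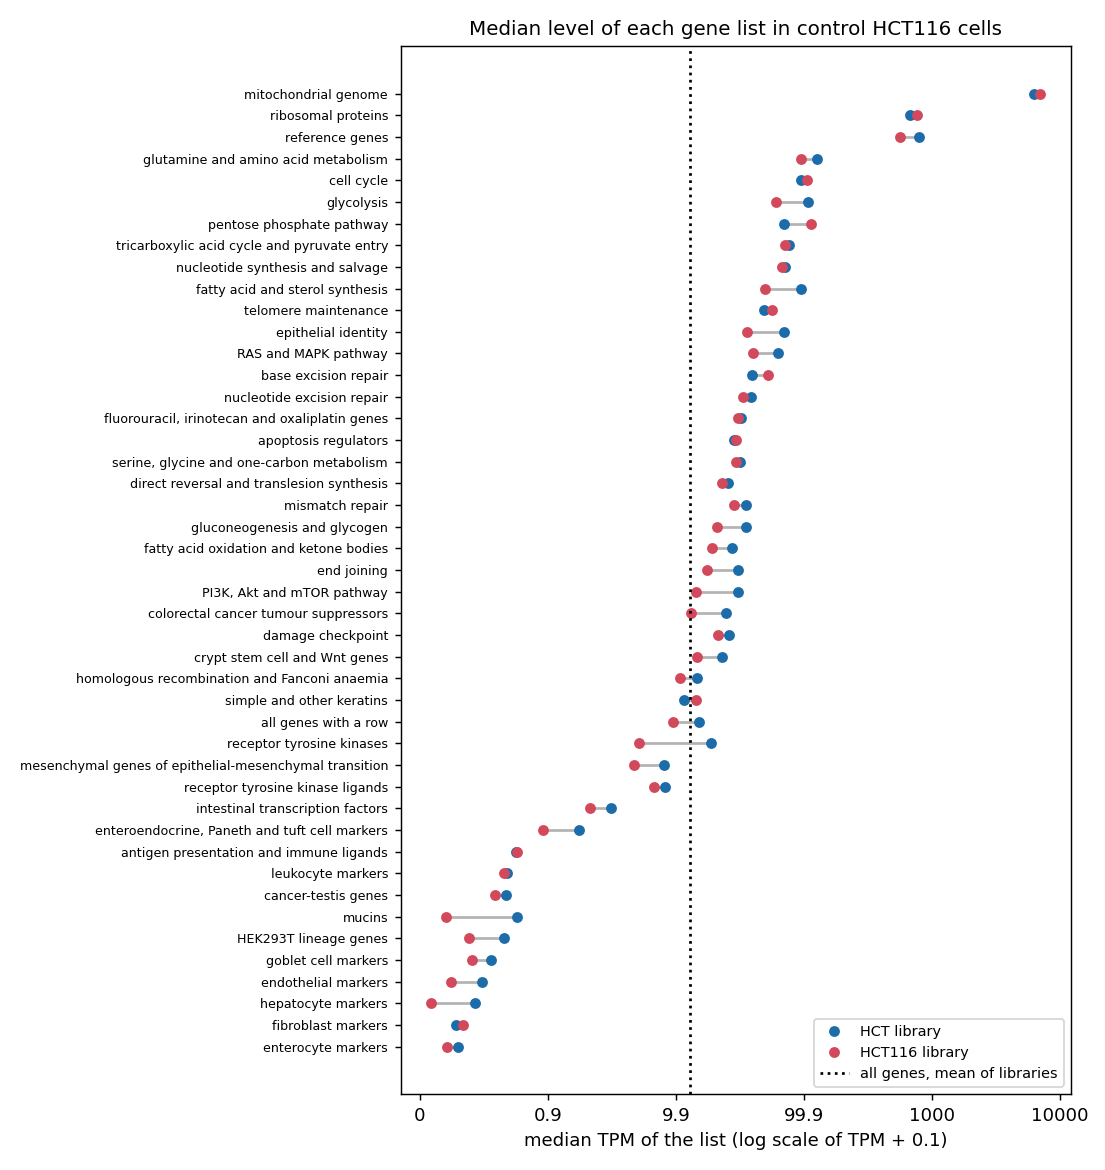
Median TPM (log scale of TPM + 0.1) of each gene list in the HCT (blue) and HCT116 (red) control libraries, ordered by the median of mean levels. The dotted line marks the median of all genes for the mean of both libraries, 12.8 TPM. Reference, metabolic and cell cycle lists lie to the right of it, and markers of mature intestinal and non-epithelial cells to the left.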

How the data were processed

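Libraries came from poly(A) RNA and a NEBNext Ultra RNA kit, per the labels' protocols. Tools named by the submitters' processing notes are STAR, HTSeq 0.6.0 and DESeq2, with the build hg18, and no roles are given. Strand use is not stated there, so reads where genes overlap are uncertain. Raw read counts for every gene symbol and library were used as the authors deposited them, per the file headers. The authors' deposited log2 fold changes and p-values were not used, nor were 40 other columns of normalized or repeated values. WT counts are identical in both tables over 15284 shared genes, and the table of 15548 genes was used. Another 429 genes, listed in the other table only, were left out. Column names give the group and no replicate number.

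CPM is reads per 1000000 of the library total. TPM used the longest GENCODE 29 transcript of each symbol, because that release marks no canonical transcript. The APPRIS principal transcript was tried first and set aside after it gave a listed gene a far shorter length and so a higher level; it is kept as an alternative chosen after seeing the data. Annotation on GRCh38 served for lengths, GC content and exon sharing only. Ratios between the libraries used CPM + 0.5.

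The members and the 42 lists were chosen with earlier results of these data known. Named genes were the 12 highest by TPM outside mitochondrial and ribosomal protein genes, the 4 highest of each list, up to 4 members under 1 CPM, the member of each list with the widest gap, a fixed set of cancer genes, and all members of 16 families; not every gene the rule takes is printed, and some listed genes are not reported here. CDH1, KRT15, ACACA, AXIN2, LEF1, SLC16A1, SLC16A3 and BCL2 were added after their values were seen. Scripts were tested on simulated counts. Python 3.11.15, pandas 2.3.3, R 4.3.3, edgeR 4.0.16 and DESeq2 1.42.0 were used, the last pair for library scaling only.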

Additional observations from a re-analysis of the deposited data

How the results depend on the processing

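No paired analysis was possible because there is 1 group and its columns carry no replicate number. Each library alone, other scalings and other CPM limits left the number of detected genes within 1.5 times (12 of 12 values). Without mitochondrial genome genes the top 100 genes took 19.2% of reads. Genes past 2-fold between the libraries split into 1095 higher in HCT and 1372 higher in HCT116 with TMM, and 1077 and 1390 with DESeq2 size factors. They numbered 5032 past 1.5-fold (3137 and 1895) and 190 past 4-fold (152 and 38). Centring the ratio on genes of similar transcript length, chosen after seeing the data, left 1579, of which 724 were higher in HCT.

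Of list medians, 245 of 307 alternative values stayed within the SD of the 2 libraries. For a library taken alone this is no independent check, because the SD comes from the same 2 libraries. With TMM scaling, the median TPM was 0.426 for leukocyte markers, 30.8 for apoptosis regulators. With DESeq2 size factors, the median TPM was 0.426 for leukocyte markers, 30.8 for apoptosis regulators. With totals that leave out mitochondrial genome genes, the median TPM was 0.43 for leukocyte markers, 32.0 for serine, glycine and one-carbon metabolism, 78.1 for nucleotide synthesis and salvage, 37.5 for fluorouracil, irinotecan and oxaliplatin genes, 33.8 for apoptosis regulators, 0.494 for antigen presentation and immune ligands. With the union of exons as length, the median TPM was 0.444 for leukocyte markers, 8.91 for receptor tyrosine kinase ligands, 33.1 for base excision repair, 23.4 for direct reversal and translesion synthesis, 24.9 for damage checkpoint, 51.7 for telomere maintenance, 71.0 for tricarboxylic acid cycle and pyruvate entry, 59.6 for nucleotide synthesis and salvage, 111 for cell cycle, 38.9 for apoptosis regulators, 0.493 for antigen presentation and immune ligands, 0.428 for cancer-testis genes. With the principal transcript, chosen after seeing the data, the median TPM was 0.275 for goblet cell markers, 0.347 for leukocyte markers, 6.48 for receptor tyrosine kinase ligands, 35.1 for mismatch repair, 30.8 for nucleotide excision repair, 27.0 for direct reversal and translesion synthesis, 57.2 for telomere maintenance, 68.7 for tricarboxylic acid cycle and pyruvate entry, 25.9 for serine, glycine and one-carbon metabolism, 35.0 for fatty acid oxidation and ketone bodies, 65.7 for nucleotide synthesis and salvage, 30.3 for fluorouracil, irinotecan and oxaliplatin genes, 85.3 for cell cycle, 37.4 for apoptosis regulators, 0.399 for antigen presentation and immune ligands. Without members that share over 50% of exonic bases or lie from HLA-F to DAXX, also chosen after seeing the data, the median TPM was 0.321 for leukocyte markers, 142 for glycolysis, 37.4 for serine, glycine and one-carbon metabolism, 18.0 for antigen presentation and immune ligands. Leaving out each library in turn gave medians of 35.5 to 70.4 for epithelial identity, 4.63 to 7.96 for mesenchymal genes of epithelial-mesenchymal transition, 0.0624 to 0.0964 for enterocyte markers, 0.354 to 0.378 for leukocyte markers, 12.9 to 24.4 for colorectal cancer tumour suppressors, 28.3 to 35.4 for mismatch repair, 39.1 to 52.4 for base excision repair, 10.6 to 14.6 for homologous recombination and Fanconi anaemia, 22.9 to 25.6 for direct reversal and translesion synthesis, 21.1 to 25.9 for damage checkpoint, 48.6 to 56.5 for telomere maintenance, 70.7 to 76.5 for tricarboxylic acid cycle and pyruvate entry, 67.1 to 71.5 for nucleotide synthesis and salvage, 30.4 to 32.3 for fluorouracil, irinotecan and oxaliplatin genes, 28.6 to 29.4 for apoptosis regulators, 568 to 798 for reference genes. The antigen presentation median rests on the stretch of chromosome 6 with reads near 0. Members at or over 10 CPM ranged from 1 to 2 for enterocyte markers, 0 to 2 for enteroendocrine, Paneth and tuft cell markers and 1 to 2 for endothelial markers when each library was left out; the other 207 counts stayed within 1.5 times. Of single-gene levels, 545 of 588 stayed within the SD, which holds by construction for a library taken alone unless both are at 0. Of ranks, 204 of 239 stayed within the SD, and 21 of 84 moved without the HCT library and 13 without the HCT116 library. Here too a library taken alone is held against an SD from the same 2 libraries. The order of ERBB2 and EGFR in the HCT library turned with the transcript length. The planned median percentile rank of lists is not reported, and promoter features by level could not be run. The alternative with the authors' FPKM was not run, because those columns could not be matched to single samples.

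Counts of a few reads limit the low genes, and 2 libraries that differ with length and GC content limit all others. Exon sharing and missing rows keep low or absent genes from being read as silent.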
